A study of Homo sapiens with 6 samples.

Results

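The regions described here are the widest single stretches of H3K27 acetylation that the peak caller left unbroken in 2 human lines of T-cell leukaemia. Peaks of 3 H3K27ac lists on chromosomes 1 to 22 and X were joined into union regions wherever they shared at least 1 base, and a region was kept if any list held a single peak of 4 kb or wider in it. This left 917 regions of 49528. The regions were selected on their peak widths, so every width given for them is a description and no width was tested. The lists come from Jurkat (2 libraries, labelled replicates 1 and 2) and from 6T-CEM (1 library), both labelled as T-ALL (T-cell acute lymphoblastic leukaemia) cells with an antibody to H3K27ac. The series also holds 3 IgG samples, which were not analysed here. The series text speaks of CUT&Tag, of an exposure at 10 nM for 24 h and, in its title, of the BET inhibitor GNE-987. No sample label gives a treatment, so each library may come from treated or untreated cells. The labels do not tell if the 2 Jurkat libraries are from 1 culture or more, and each line stands for 1 leukaemia only.

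H3K27ac is placed by the acetyltransferases p300 and CBP on nucleosomes beside active promoters and enhancers, where it can be read by bromodomain proteins of the BET family. At most active genes it forms short islands. Long unbroken stretches are known from genes of cell identity, where neighbouring enhancers, the promoter and the first part of the gene body carry the mark together, and much of what is called a super-enhancer consists of such stretches. In T cells they are known at genes of the T-cell receptor complex, its signalling kinases and the transcription factors of the lineage.

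The microRNA with the most constant stretch over it was MIR142, a blood-cell microRNA gene, and 20 of the 917 regions lay over 1 or more microRNA genes (24 genes in all). The mature sequences of the microRNAs that the results return to are given here from RefSeq (GRCh38.p14), 5′ to 3′, with the seed (bases 2 to 8) in capitals. Those of MIR200C and MIR141 lie inside the PTPN6 region and differ in seed, that of MIR342 lies inside EVL, and those of MIR4513 (at CSK) and MIR6855 (at USP20) have the same seed.
hsa-miR-142-3p: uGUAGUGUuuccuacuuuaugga
hsa-miR-142-5p: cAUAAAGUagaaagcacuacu
hsa-miR-342-3p: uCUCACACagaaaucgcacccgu
hsa-miR-200c-3p: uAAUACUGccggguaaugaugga
hsa-miR-141-3p: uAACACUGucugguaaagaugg
hsa-miR-4513: aGACUGACggcuggaggcccau
hsa-miR-6855-3p: aGACUGACcuucaaccccacag

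The promoters of 6 genes that recur in the results are shown so that their base content can be compared. Each run is the 200 bases before the annotated start, on the gene's own strand, from RefSeq (GRCh38.p14). Capitals mark matches, on either strand, to the ETS letters CCGGAAG, the RUNX letters TGTGGT, the E-box letters CAGCTG or the SP/KLF letters GGGCGG. ADA is dense in CpG and holds 5 SP/KLF matches, some of them overlapping, whereas CD3D, ZAP70, PTPN6 and IL2RG are poor in CpG. The CpG ratio (CpG pairs observed over those expected from the C and G content, in the 250 bases before and 50 after the start) was 1.03 for ADA, 0.688 for TCF7, 0.352 for PTPN6, 0.309 for ZAP70, 0.252 for CD3D and 0.211 for IL2RG.
CD3D, chr11:118342706-118342905, minus strand: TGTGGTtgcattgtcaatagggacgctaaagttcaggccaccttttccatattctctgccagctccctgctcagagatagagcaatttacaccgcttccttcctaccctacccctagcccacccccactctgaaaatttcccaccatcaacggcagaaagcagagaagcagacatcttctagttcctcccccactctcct
ZAP70, chr2:97713376-97713575, plus strand: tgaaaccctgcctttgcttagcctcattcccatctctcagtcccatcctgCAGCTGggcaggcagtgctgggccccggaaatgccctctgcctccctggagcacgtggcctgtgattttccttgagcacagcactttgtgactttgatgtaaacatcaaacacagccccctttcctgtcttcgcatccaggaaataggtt
IL2RG, chrX:71111578-71111777, minus strand: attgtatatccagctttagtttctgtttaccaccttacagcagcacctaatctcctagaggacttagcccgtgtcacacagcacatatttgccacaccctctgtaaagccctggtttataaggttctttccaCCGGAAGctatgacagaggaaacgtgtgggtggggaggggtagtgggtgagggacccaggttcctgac
PTPN6, chr12:6951156-6951355, plus strand: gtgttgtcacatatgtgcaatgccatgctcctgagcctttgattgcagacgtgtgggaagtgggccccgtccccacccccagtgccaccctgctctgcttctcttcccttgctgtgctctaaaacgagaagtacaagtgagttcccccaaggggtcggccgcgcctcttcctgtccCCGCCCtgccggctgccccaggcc
TCF7, chr5:134115413-134115612, plus strand: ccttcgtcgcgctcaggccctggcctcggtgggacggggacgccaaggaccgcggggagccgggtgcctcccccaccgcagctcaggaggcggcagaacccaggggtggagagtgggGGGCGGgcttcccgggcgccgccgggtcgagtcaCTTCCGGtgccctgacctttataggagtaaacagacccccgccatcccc
ADA, chr20:44651700-44651899, minus strand: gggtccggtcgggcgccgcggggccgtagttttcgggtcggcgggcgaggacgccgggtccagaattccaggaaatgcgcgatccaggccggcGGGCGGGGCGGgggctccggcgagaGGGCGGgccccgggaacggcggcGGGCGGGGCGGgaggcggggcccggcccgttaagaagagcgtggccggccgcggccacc

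The 3 lists differed in length before any width was considered. Sets of 3 values are in the order Jurkat replicate 1, Jurkat replicate 2, 6T-CEM. The lists held 16159, 32097 and 35154 peaks covering 16.2, 27.6 and 34.3 Mb, so Jurkat replicate 1 stood apart with the fewest peaks. They give no read counts, and the depth of the libraries is therefore unknown. As a check of the labelled cell type, 6, 7 and 7 of 7 T-cell markers had a peak within 2.5 kb, with CD7 at 0 in Jurkat replicate 1, and 4 of the 7 had a peak of 4 kb or wider in each library. No marker of B, myeloid, erythroid or NK cells or of non-blood tissues (37 genes) had such a wide peak in any library, although 2, 3 and 4 of 7 B-cell and 1, 3 and 4 of 8 myeloid markers had a peak of some width. Among the B-cell genes, PAX5, EBF1 and MS4A1 were at 0 in every library. The summed peak length near the T-cell markers was 51180, 62459 and 46308 bp, against 4867 to 13220 bp for B-cell and 731 to 9729 bp for myeloid markers.

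Wide peaks were rare but made up a sizeable part of the acetylated sequence. There were 185, 400 and 671 peaks of 4 kb or wider, which were 1.15%, 1.25% and 1.91% of all peaks and 6.47%, 8.54% and 11.8% of all covered bases. All peaks in the 917 regions together held 15.8%, 15.2% and 14.5% of covered bases. The median width of the wide peaks was 5189, 5062 and 5084 bp, and the widest were 16727, 37255 and 39901 bp. Many lay close to the threshold, with 84, 195 and 305 of them under 5 kb, and 15, 48 and 90 were 8 kb or wider. The 3 regions just inside the threshold had widest peaks of 4008 bp (MAP4K2), 4010 bp (LDLRAD4) and 4012 bp (PRMT7 and SMPD3). Those just outside reached 3999 bp (BCL11A), 3994 bp (near CCR7) and 3993 bp (MLLT1). Within each list, width and fold enrichment, both as the authors' peak caller gave them, went together. The median fold over the caller's background was 9.13, 7.77 and 7.81 for wide peaks, against 5.18, 4.33 and 4.65 for all peaks. Their dependence on each other was not tested. Between lists the widest peak of a region did not always have the highest fold. At the widest ZMIZ1 region it did (6.85, 6.34 and 8.49), but in a CDK6 region widest in Jurkat replicate 1 it did not (7.88, 15.4 and 21.4).

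**Figure D1:**
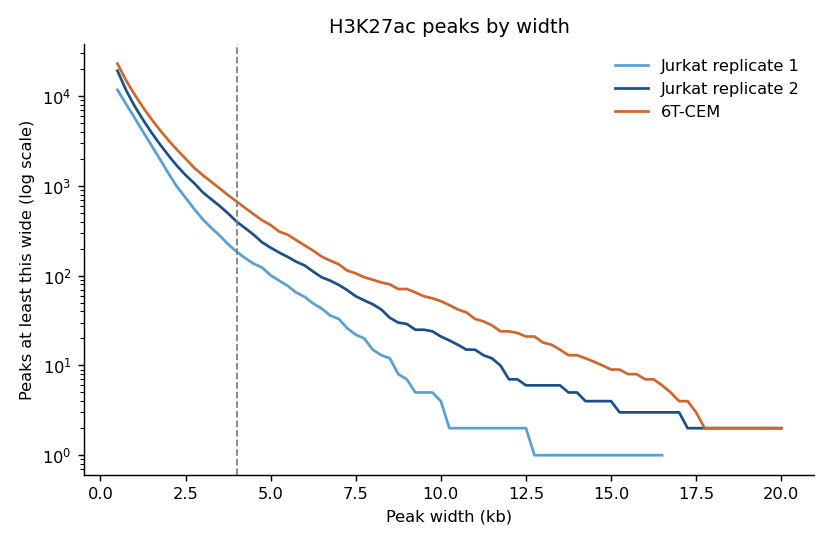
Number of peaks (log scale) at least as wide as the width on the x axis (kb), 1 line per library, with a dashed line at 4 kb. At 4 kb the lines pass through 185, 400 and 671 peaks, and the line of Jurkat replicate 1 ends at 16727 bp, while the axis stops at 20 kb, short of the widest peaks of the other two.

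A wide peak in 1 list usually overlapped a peak in the others, and less often a single wide peak. Of the 917 regions, 702 (76.6%, 95% Clopper-Pearson interval 73.7 to 79.3, counting error only) had a peak in every library, against 17.4% of all union regions and 61.1% of the 3541 regions whose widest peak was 2 to under 4 kb. A longer region has more bases to overlap, so the 17.4% is not a like-for-like background. Only 64 regions (6.98%) had a peak of 4 kb or wider in every library. The other classes were 182 regions wide in 2 libraries and 671 (73.2%) wide in 1 library, namely 439 for 6T-CEM, 145 for Jurkat replicate 2 and 87 for Jurkat replicate 1. Left out in turn, the Jurkat libraries changed the count of regions wide in every remaining library to 218 (without replicate 1) and 71 (without replicate 2). The share with a peak in every library became 92.6% without replicate 1 and 76.6% without replicate 2.

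The widths of 1 library can be read against the peaks of a library that did not choose them. Of the 185 wide peaks of Jurkat replicate 1, 97.3% (93.8 to 99.1) overlapped a peak of replicate 2 and 47.6% (40.2 to 55.0) overlapped another wide peak. In 6T-CEM the same 185 peaks were overlapped in 94.1% and met a wide peak in 39.5% (32.4 to 46.9). The overlap shares were close to those of replicate 1 peaks of 2 to under 4 kb, at 97.32% in replicate 2 and 93.37% in 6T-CEM. For all peaks of replicate 1 they were 71.56% and 71.95%. Conversely, of the 671 wide peaks of 6T-CEM, 93.3% overlapped a peak of Jurkat replicate 2 and 74.4% a peak of replicate 1, with a wide peak in 33.1% (29.5 to 36.8) and 10.7% (8.49 to 13.3). For 6T-CEM peaks of 2 to under 4 kb the overlap shares were 86.52% and 61.69%, and for all its peaks 49.16% and 32.08%. A longer peak has more bases to overlap, so these classes are not like for like. Of the 6 ordered pairs the highest share meeting a wide peak was between the lines. Of the 400 wide peaks of Jurkat replicate 2, 232 (58.0%, 53.0 to 62.9) met a wide peak of 6T-CEM. A wide peak of replicate 1 was met by 88 (22%, 18 to 26.4). Pooled over pairs, wide met wide in 31.1% between the lines and in 30.1% within Jurkat, and without replicate 2 the share between the lines was 16.9%. The lists also differ in length, and its part in these shares was not tested.

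Where width was not shared, the other library often held several shorter peaks in the same stretch. Depending on the pair, 26.8% to 48.5% of the wide peaks of 1 library met 2 or more peaks of another, all under 4 kb, and 8.65% to 23.6% met 1 such peak. In the 439 regions wide in 6T-CEM alone, 313 (71.3%) had at least 2 peaks in Jurkat replicate 2, and 45 (10.3%) had none. In the same 439 regions Jurkat replicate 1 had at least 2 peaks in 160 (36.4%) and none in 162 (36.9%). In the 87 regions wide in Jurkat replicate 1 alone, 67 (77.0%) had at least 2 peaks in replicate 2 and 64 (73.6%) at least 2 in 6T-CEM. A wide peak of 1 library was covered by acetylated bases of another to a median of 92.3% at most (Jurkat replicate 2 read in 6T-CEM) and 30.6% at least (6T-CEM read in Jurkat replicate 1).

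**Figure D2:**
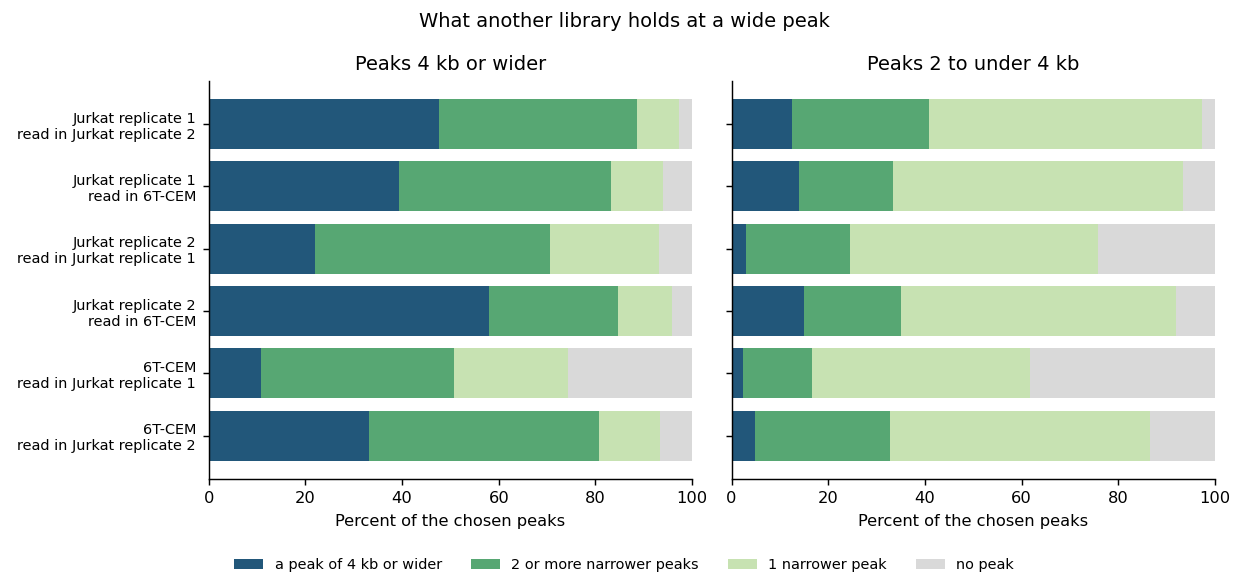
Percent of the peaks of 4 kb or wider (left) and of 2 to under 4 kb (right) of 1 library, by what a second library holds at the same place, with 1 bar for each ordered pair of libraries. On the left 10.7% to 58.0% of the peaks meet another wide peak, on the right 2.36% to 14.9%, and the grey part with no peak is longest for 6T-CEM read in Jurkat replicate 1.

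The widest stretches showed this pattern in full. The widest single peak of the series was 39901 bp inside ZMIZ1, which encodes a transcriptional cofactor of NOTCH1 (chr10:79121705-79161605, gene body). It was 1 peak in 6T-CEM, 9 peaks covering 36176 bp (90.7% of the region) in Jurkat replicate 2 and 10 peaks covering 12215 bp (30.6%) in replicate 1. The order was turned in GRAMD4, where replicate 2 had a single peak of 37255 bp (chr22:46585418-46622724), 6T-CEM 8 peaks covering 90.1% of the region and replicate 1 17 peaks covering 64.0%. MYO7B, which encodes an unconventional myosin, carried 29190 bp in replicate 2 over a start (chr2:127613772-127643309), with 9 peaks in replicate 1 and 7 in 6T-CEM. In these 3 regions Jurkat replicate 2 and 6T-CEM each covered 60.1% or more of the bases, while the division into peaks differed.

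TCF7, which encodes the T-cell factor TCF-1, had the widest peak of 6T-CEM over a gene start. Its stretch of 20595 bp (chr5:134114870-134135488) began before the start printed above and ran into the gene. The same region held 5 peaks in Jurkat replicate 2 (18863 bp covered, widest 8347 bp) and 6 in replicate 1 (7744 bp covered, widest 2524 bp). A second region in TCF7 had widest peaks of 614, 10701 and 6446 bp. Wide peaks of 6T-CEM also lay in VAC14 (2270, 8224 and 17508 bp), RAI1 (2764, 5381 and 16705 bp) and KPTN (1395, 2514 and 16462 bp), where the order of the libraries was the same as in TCF7.

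The widest peak of Jurkat replicate 1 lay across STAT5A and STAT3, neighbouring genes for transcription factors of cytokine signalling (chr17:42303702-42324326). It measured 16727 bp there, against 11971 and 10267 bp for the widest peaks of Jurkat replicate 2 and 6T-CEM. The region was the only one with more than 10 kb in a single peak of every library. Next came the T-cell receptor alpha constant gene TRAC, with a single peak of 12680 bp in replicate 1, widest peaks of 6012 and 3830 bp in the others, and 12680, 12550 and 6772 covered bases. Jurkat replicate 1 was also widest in RUNX1, a T-lineage and leukaemia transcription factor, with 9085, 1978 and 2091 bp.

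**Figure D3:**
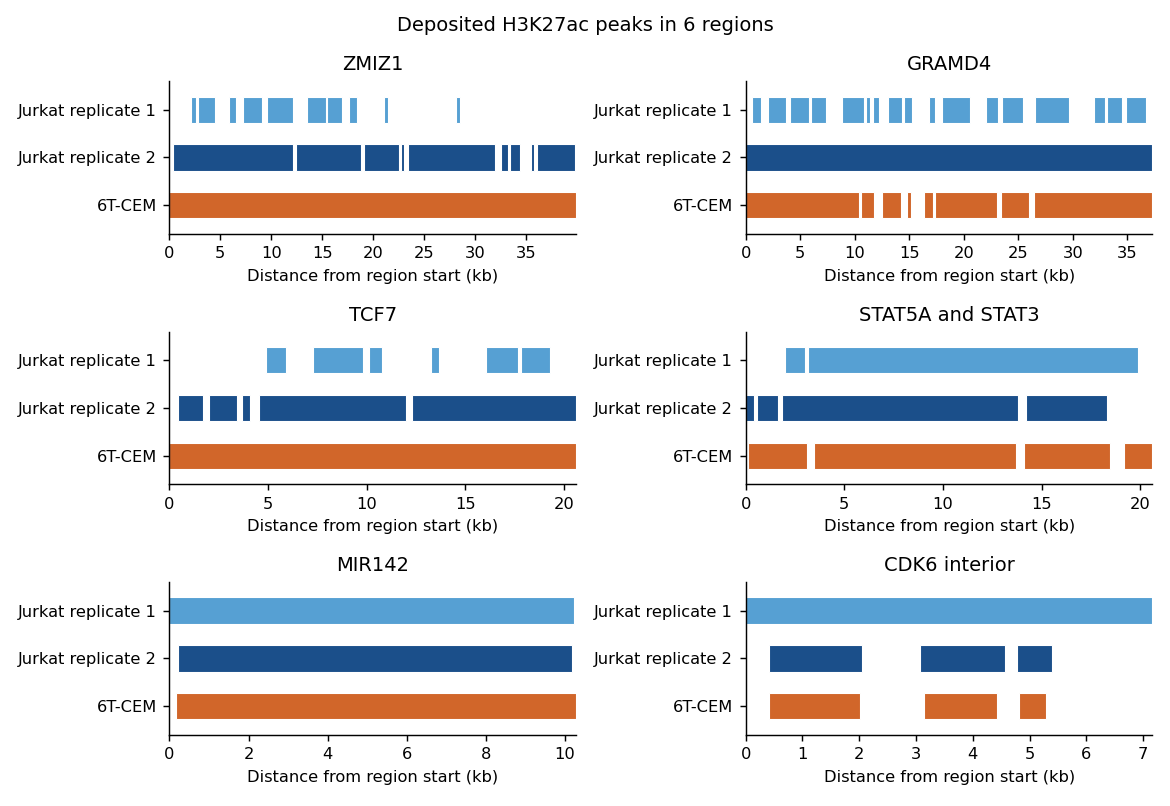
Peaks of each library as bars in 6 of the regions, by distance from the start of the region (kb), 1 row per library. ZMIZ1, GRAMD4 and TCF7 are unbroken in 1 library and divided into 5 to 17 peaks in the other two, MIR142 is a single peak in all 3, and the region inside CDK6 is 1 peak in Jurkat replicate 1 and 3 peaks in each of the other two.

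The 64 regions with a wide peak in every library included some at genes of lymphocytes, such as CD2 and ZAP70. Others lay at widely expressed genes, such as MYH9 and HDGF, and the 64 were not classed by kind of gene. Of the 64 regions, 25 lay over the start of a protein-coding gene, 27 inside a gene without its start and 12 outside protein-coding genes. MIR142 (chr17:58330222-58340506), inside its host transcript and near TSPOAP1, was a single peak of 10236, 9954 and 10119 bp and so nearly equal in the 3 lists. It shares this stretch with MIR4736. NEAT1, the long non-coding RNA that builds paraspeckles, had 7830, 8516 and 9235 bp (chr11:65416120-65425354). Among regions over a start were FMNL1, a formin of blood cells (8623, 11357 and 14777 bp), TNFRSF1A, a receptor for tumour necrosis factor (8034, 8063 and 9418 bp), and ADA, adenosine deaminase, whose loss causes severe combined immunodeficiency (7919, 11576 and 11717 bp). PTPN6, the phosphatase SHP-1 that restrains antigen receptor signals, had 6448, 13734 and 12993 bp, and the stretch of Jurkat replicate 2 ran over MIR200C and MIR141, short of which the peaks of the other libraries ended. CD82, a tetraspanin, had 7756, 7440 and 7557 bp in its body and RCSD1 5664, 5636 and 5752 bp over its start, both with little spread.

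In 22 of the 64 regions (34.4%) the widest of the 3 widths was at most 1.2 times the narrowest, and in 28 (43.8%) it was above 1.5 times. NRROS had 5262, 12270 and 17252 bp, GRK2, a kinase of G-protein-coupled receptors, 5953, 7904 and 14599 bp, and IL2RG, the common gamma chain of interleukin receptors, 4493, 10399 and 11580 bp. The apoptosis inhibitor BCL2L1 had 2 such regions with 6425, 5668 and 5706 bp and with 6099, 4735 and 4743 bp, and another region there was wide in Jurkat replicate 2 alone (1666, 5779 and 2422 bp). A region near its relative BCL2 had 4117, 4732 and 4528 bp. Replication-dependent histone gene pairs were also present, with 4864, 4546 and 5018 bp over H3C14 and H2AC18 and 5049, 4643 and 6639 bp over H3C15 and H2AC19. Of the 917 regions, 96 were 1 peak in each library, and in 20 of those each peak was 4 kb or wider.

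**Figure D4:**
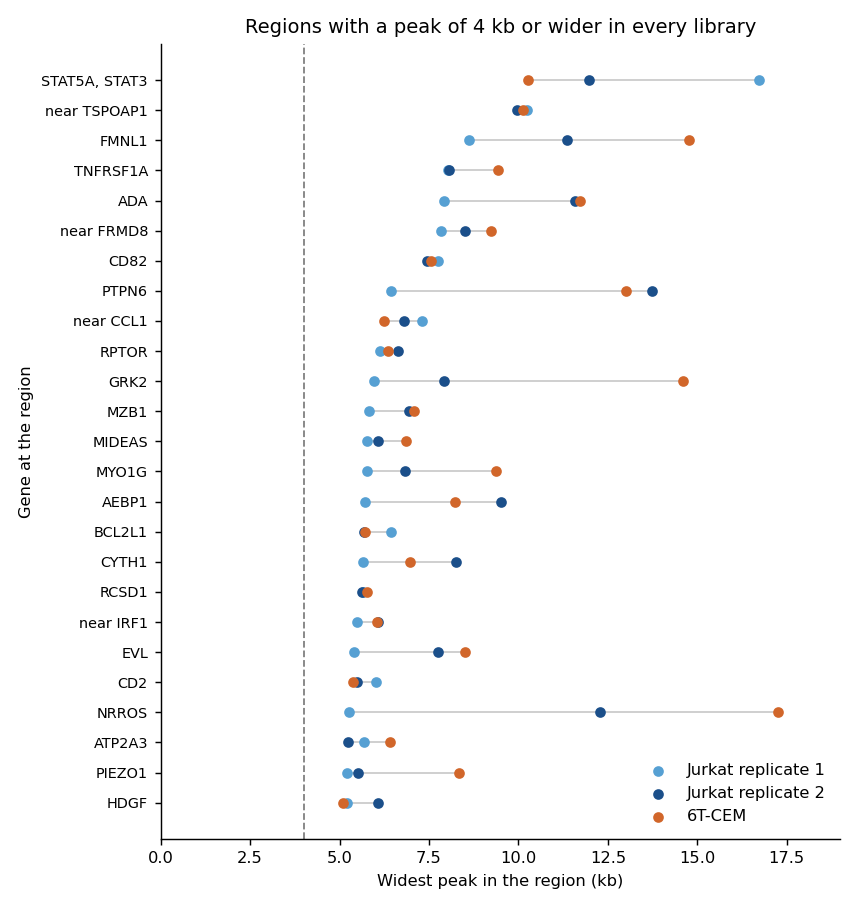
Widest peak (kb) of each library in the 25 regions with the largest smallest width, 1 row per region, with points for the libraries joined by a grey line and a dashed line at 4 kb. MIR142 is the row near TSPOAP1 and NEAT1 the row near FRMD8; points lie together there and at CD82 and RCSD1, and far apart at NRROS, PTPN6 and GRK2.

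Antigen receptor loci held 4 of the regions, 3 of them T-cell receptor segments. Beside TRAC, the region of TRBC2, a constant gene of the receptor beta chain, had 9206, 5263 and 4817 bp. The neighbouring D and J segments of the beta chain, TRBD2 to TRBJ2-7, had 5301, 4583 and 3454 bp with folds of 15.6, 22.8 and 15.8 in the authors' lists. The fourth lay over D segments of the immunoglobulin heavy chain (chr14:105888336-105894052), with 1325, 5658 and 2700 bp. All 4 had peaks in every library, and 1 of them, at TRBC2, was wide in every library.

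Of 23 T-cell surface and signalling genes, 9 were overlapped by a region (39.1%), where 648 of 19974 protein-coding genes (3.24%) were. A longer gene has more bases to overlap, so the 3.24% is not a like-for-like background. The share was not particular to T-cell genes. Apart from the lists of other cell types, the other lists ran from 8.33% (homeobox and related oncogenes) to 47.1% (chromatin regulators), with housekeeping genes at 16.7%. CD3D and CD3G, 2 chains of the CD3 complex, share a stretch of 6453, 7052 and 4250 bp. CD3E, another chain, had 4870 and 997 bp in Jurkat and no peak in 6T-CEM in its region. CD2, an adhesion receptor of T cells, had 6006, 5495 and 5374 bp. LCK, the kinase that phosphorylates CD3, had 2 regions over annotated starts, with 3767, 5381 and 6402 bp and with 3670, 5726 and 5023 bp. ZAP70, the kinase recruited after LCK, had 4147, 8443 and 8147 bp. CD6 (1517, 2293 and 6391 bp), the adaptor gene LCP2 (0, 1615 and 4484 bp) and the chemokine receptor gene CCR7 (0, 1349 and 4485 bp) were wide in 6T-CEM alone. CD3D, CD3G, CD2, LCK and ZAP70 were thus wide in at least 2 libraries. The lists were chosen with earlier results of these data known, and such shares describe the lists only.

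Lineage transcription factors were covered in part, and seldom in all libraries. In the TAL1 circuit, the set of factors that act with the oncogene TAL1 in T-ALL, 5 of 11 genes were overlapped. TAL1 itself had widest peaks of 1846 and 7271 bp in Jurkat and none in 6T-CEM, and the region beside it 3135 and 4284 bp and none. GATA3, a T-cell factor that acts with TAL1, had 759, 1829 and 6423 bp, and LYL1, a relative of TAL1, had 0, 489 and 7148 bp. LDB1, an adaptor of the complex, had 1785, 3441 and 4344 bp. RUNX1 had 4 regions, of which 3 were wide in Jurkat replicate 1 alone and 1 in 6T-CEM alone. TAL1 was thus wide in Jurkat replicate 2 alone, and GATA3 and LYL1 were wide in 6T-CEM alone.

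Of 24 other T-lineage factors 8 were overlapped. TCF7 apart, the regions wide in 6T-CEM alone were those of IKZF1, the lymphoid factor Ikaros (1067, 1687 and 4259 bp at its start), GFI1, a repressor (1345, 0 and 4660 bp), FLI1, an ETS factor (827, 1912 and 4442 bp), and ZBTB7B, a factor of helper T cells (0, 0 and 4626 bp). Regions wide in Jurkat replicate 1 alone were those of the ETS factor genes ETV6 (6074, 1585 and 1386 bp), ERG (5171, 2352 and 2611 bp) and ELF1 (4198, 0 and 0 bp). The highest fold in the ETV6 region was 14.9, 23.4 and 19.7 in the authors' lists, in each above the median of that list's wide peaks. Of 12 homeobox and related oncogenes only NKX2-5, a homeobox factor known from T-ALL with rearranged chromosomes, was overlapped, with 5980 bp in 6T-CEM and no Jurkat peak. Of 9 genes of immature thymocytes 2 were, CD1B (6073, 2467 and 1197 bp) and CD1E (4148, 1890 and 386 bp), both wide in Jurkat replicate 1 alone.

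In the NOTCH pathway 4 of 14 genes were overlapped, by regions that were mostly wide in 6T-CEM. NOTCH1, the receptor often mutated in T-ALL, had 4 regions in its body, with widest peaks of 13528, 9707, 7187 and 4095 bp in 6T-CEM, of 5632, 3604, 6436 and 1621 bp in Jurkat replicate 2 and of 952, 0, 1589 and 0 bp in replicate 1. The 4 together held 3644, 27362 and 34517 covered bases. ZMIZ1 had 9 regions, all wide in 6T-CEM and 2 of them in Jurkat replicate 2, with 12806, 65199 and 111182 covered bases. MYC, the growth regulator downstream of NOTCH1, had 472, 1487 and 4443 bp. IGF1R, a growth factor receptor, went the other way with 6873, 15066 and 1503 bp.

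Of 16 genes often studied with BET inhibitors, or of cell growth, 5 were overlapped: MYC, BRD2, CDK6, CCND3 and BCL2L1. BRD2, itself a BET protein, had 1989, 3166 and 4968 bp over its start. CDK6, a kinase of the G1 phase, had 7 regions, all wide in Jurkat replicate 1, and its start region was the only 1 of the 7 that was wide in every library (5451, 4863 and 5049 bp). The other 6 had 4428 to 7373 bp in replicate 1, 431 to 1649 bp in replicate 2 and 0 to 1602 bp in 6T-CEM. CCND3, the cyclin partner of CDK6, had 4 regions, all wide in 6T-CEM (4205 to 6665 bp), 1 of them also in replicate 1, and 1 without a Jurkat peak (5168 bp). The library with the wide peaks therefore differed between these partner genes.

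Among 17 chromatin regulators 8 were overlapped, several of them many times. HDAC4, a class IIa histone deacetylase, had 8 regions, of which 5, 6 and 1 were wide in the 3 libraries, the widest with 7825, 8877 and 3405 bp. BAHCC1, a chromatin reader, had 5 regions, all wide in both Jurkat replicate 2 and 6T-CEM and none in replicate 1. GSE1 had 5 regions, of which 1, 2 and 5 were wide, and KMT2D, a methyltransferase of enhancers, had 3590, 4729 and 4448 bp over its start. Of 21 feedback and immediate early genes 4 were overlapped, among them the phosphatase genes DUSP2 (3296, 5686 and 4604 bp) and DUSP6 (0, 0 and 4040 bp). Of 12 housekeeping genes ACTB (2100, 4985 and 3080 bp) and GAPDH (3642, 4445 and 4356 bp) were overlapped. Of the 37 marker genes of other cell types none was, which is near the 3.24% of all protein-coding genes.

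Some regions had a peak in 1 line only, and with unknown depth a missing peak need not be missing acetylation. There were 42 (4.58%) with a 6T-CEM peak and no Jurkat peak, and 26 (2.84%) with a Jurkat peak and no 6T-CEM peak. Such regions were more common among all union regions (32.2% and 32.5%) and among those of 2 to under 4 kb (8.61% and 5.54%). A longer region has more bases to overlap a peak of the other line, so these shares are not like for like. The 8 widest of the first kind were 2 regions in ZMIZ1 (9282 and 6567 bp), ADORA2A, an adenosine receptor (9264 bp), a region near EPS8L3 (7654 bp), QSOX2 (7229 bp), XYLT1 (7079 bp), NKX2-5 (5980 bp) and WFS1 (5904 bp). Of the second kind, only 2 were wide in both Jurkat libraries, near PMEPA1 (5741 and 9161 bp) and in PRKCA, a protein kinase C (5203 and 4080 bp). PMEPA1, a gene induced by and damping TGF-beta signals, had 4 regions in its body and 2 nearby. All 6 were wide in Jurkat replicate 2 (4040 to 9161 bp), had 380 to 5741 bp in replicate 1 and had no peak in 6T-CEM. Further Jurkat regions without a 6T-CEM peak lay in SCUBE1 (0 and 10572 bp), in ABCC3, a transporter (2312 and 5944 bp), at CD1D, a lipid-presenting molecule (4855 and 3343 bp), and near DNTT, the template-free DNA polymerase of immature lymphocytes (4403 and 1188 bp).

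Acetylated bases were compared between the lines as well, and in most regions 6T-CEM did not differ at least 2-fold from both Jurkat libraries. After adding 500 bp, covered bases were at least 2-fold higher in 6T-CEM than in both Jurkat libraries in 156 regions (17%), against 17.6% of all union regions, and at least 2-fold lower in 31 (3.38%), against 1.61% of all and 3.33% of the regions of 2 to under 4 kb. The higher count is thus near its background, and the lower count near that of the next width class. Without Jurkat replicate 2 the higher count was 423, and without replicate 1 the lower count was 52. With 1 library of 6T-CEM, no test of the lines was possible.

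Very wide peaks seldom had their summit within 1 kb of a gene start. Of the 917 regions 217 (23.7%, 21.0 to 26.6) lay over a start of a protein-coding gene, against 12.4% of all union regions and 28.4% of those of 2 to under 4 kb. A further 537 (58.6%, against 62.2% of all union regions) lay in a gene without its start and 163 (17.8%, against 25.4% of all union regions and 18.5% of those of 2 to under 4 kb) outside protein-coding genes, of which 69 overlapped a long non-coding RNA gene. The table of starts has 15693 of the 19974 protein-coding genes, so shares over a start are lower bounds. A longer region also has more bases to overlap a start, so the 12.4% is not a like-for-like background. The position of the summit was read as well. Only 11.9% (7.61 to 17.4), 12.5% (9.42 to 16.1) and 13.7% (11.2 to 16.5) of the summits of wide peaks lay within 1 kb of a start. For peaks of 2 to under 4 kb the shares were 40.8%, 21.8% and 23.5%, and for all peaks 37.2%, 16.2% and 18.4%. In Jurkat replicate 2 and 6T-CEM the share for wide peaks was close to that of peaks under 1 kb (13.5% and 14.8%), while in replicate 1 the latter was 30.9%. The 3 libraries thus had similar shares for wide peaks, although the lists as a whole did not. A wide peak over a start can have its summit more than 1 kb away, so the summit shares depend on width. By overlap, 21.08% of wide peaks lay over a start in Jurkat replicate 1, against 43.71% of peaks of 2 to under 4 kb. In 6T-CEM these shares were close, at 23.85% and 25.62%. In Jurkat replicate 2 the interval for wide peaks (18.04 to 26.38) held the 23.37% of the narrower class.

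Over a start, the median reach of wide peaks was longer into the gene than away from it. For wide peaks over exactly 1 start (25, 48 and 100 peaks), the median reach was 2242, 1606 and 2172 bp before the start and 3400, 4037 and 3198 bp after it. The part after the start was the longer in 60.0% (38.67 to 78.87), 68.8% (53.75 to 81.34) and 63.0% (52.76 to 72.44). This is no higher than the 65.8%, 72.5% and 73.4% for peaks of 2 to under 4 kb. The stretch over ADA reached 677 bp before and 10898 bp after the start in Jurkat replicate 2, and 856 and 10860 bp in 6T-CEM. That over IL2RG reached 398 and 4094, 741 and 9657, and 777 and 10802 bp in the 3 libraries. Its region held 4, 2 and 1 peaks with 6729, 10775 and 11580 covered bases. The border after the start in replicate 1 is thus that of 1 peak among 4, and not the end of the covered bases. CD3D was more even, with 2302 and 4150, 2067 and 4984, and 2136 and 2113 bp.

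The starts under these regions were poorer in CpG than other acetylated starts. A CpG ratio under 0.6 was found at 147 of 315 starts in the 917 regions (46.7%, 41.1 to 52.3). It was found at 19.4% (17.4 to 21.4) of starts in regions of 2 to under 4 kb, at 15.8% of starts in any union region and at 37.9% of all starts in the table. The median ratio was 0.645, 0.858, 0.854 and 0.737 in the same order. Several starts of a gene can lie in 1 region, so the count was repeated with the most upstream start of each gene, which gave 39.0% (32.1 to 46.2), 17.6%, 12.9% and 34.5%. CD3D, ZAP70, PTPN6 and IL2RG, printed above, are of the CpG-poor kind, and ADA and TCF7 are not.

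Motif letters were counted at the same starts. In the window from 250 bases before to 50 after, searched on both strands, the ETS letters CCGGAAG stood at 9.52% (6.52 to 13.3) of starts in the 917 regions, at 22.7% of starts in any union region and at 12.7% of all starts. The CpG-containing SP/KLF letters GGGCGG stood at 61.9%, 70.2% and 56.2%. Of the letters without CpG, CCAAT stood at 26.7% (21.9 to 31.9), 34.4% and 34.7%, TATAAA at 7.62% (4.94 to 11.1), 4.52% and 9.50%, the E-box CAGCTG at 20.0%, 16.1% and 18.0%, the RUNX letters TGTGGT at 9.21%, 9.56% and 11.3%, and the GATA letters AGATAA at 5.08%, 4.40% and 7.90%. A match is a description of the letters and not a site.

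**Figure D5:**
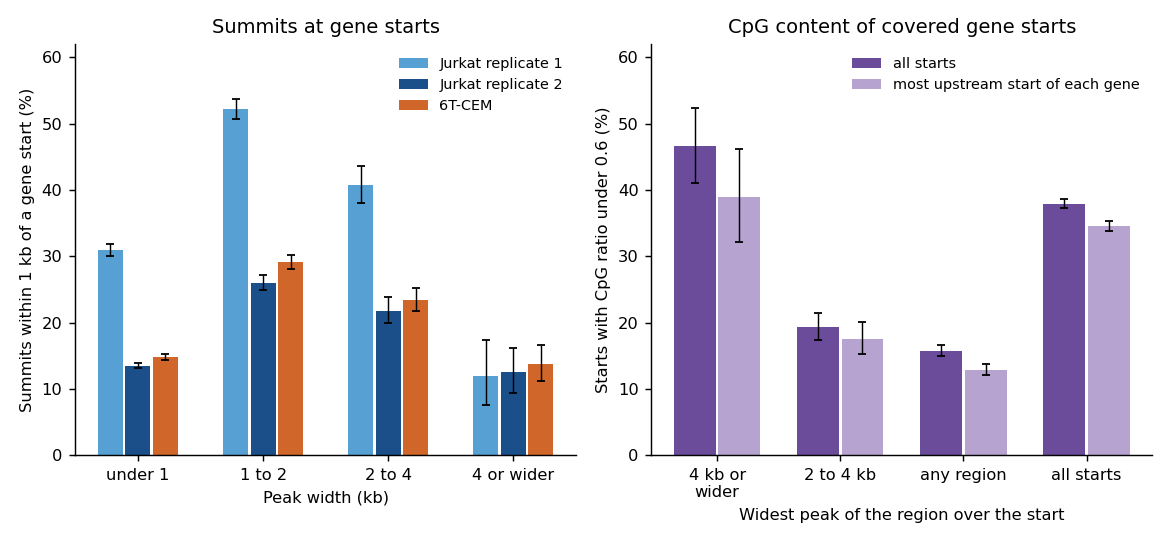
Left, percent of peak summits within 1 kb of a protein-coding start, by peak width (kb) and library. Right, percent of starts with a CpG ratio under 0.6, by the widest peak of the region over them, for all starts and for the most upstream start of each gene; bars on both sides begin at 0 and whiskers are 95% Clopper-Pearson intervals. The bars at 4 kb or wider lie between 11.9% and 13.7% on the left and reach 46.7% and 39.0% on the right, above the bars of the narrower classes.

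Regions wide in different libraries differed in where they lay. Of the 87 wide in Jurkat replicate 1 alone, 31 (35.6%, 25.7 to 46.6) lay outside protein-coding genes and 19 (21.8%) over 100 kb from the nearest. For the 439 wide in 6T-CEM alone these shares were 15.0% (11.8 to 18.7) and 2.73%, and for the 145 wide in Jurkat replicate 2 alone 22.1% (15.6 to 29.7) and 4.14%. Of all union regions 25.4% lay outside protein-coding genes. Chromosomes 16, 17, 19 and 22, singled out after their values were seen, held 9.20% (4.05 to 17.3) of the replicate 1 regions, 29.8% (25.6 to 34.4) of those of 6T-CEM and 48.3% (39.9 to 56.7) of those of replicate 2, against 23.8% of all union regions. The replicates of 1 line thus lay at the ends of this range, with 6T-CEM between them. The part played by list length or other library properties was not tested. An example wide in replicate 1 alone lies 992678 bp from BCL11B, a T-lineage factor, in a gene-poor stretch (chr14:98166771-98176608), with 9778 bp in 1 peak, 5 peaks up to 2481 bp and 4 peaks up to 3161 bp. Another 2 regions in that stretch were wide in 6T-CEM alone (3061, 2339 and 4402 bp, and 2757, 1794 and 7559 bp).

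Some genes held several of the regions. Of the 917, 319 (34.8%) lay within 12.5 kb of another, against 40.5% of the more numerous regions of 2 to under 4 kb, and 126 of the 648 overlapped genes held more than 1. SEPTIN9, a cytoskeletal GTPase gene, had 9, all wide in 6T-CEM (4292 to 14291 bp), 1 of them in Jurkat replicate 2 and none in replicate 1. FAM53B had 6 (wide in 1, 5 and 6), GRAMD4 6 (0, 5 and 3) and UBASH3B, a negative regulator of T-cell receptor signals, 4 in 6T-CEM alone. ITGAE, which encodes an integrin of tissue-resident T cells, had 4, also wide in 6T-CEM alone. In 109 of the 126 genes with more than 1 region (86.5%) at least 1 library was wide in every region of the gene. Exceptions included RUNX1, HDAC4 and GRAMD4. By the rule every region is wide in at least 1 library, 6T-CEM was wide in 72.6% of the 917, and 81 genes held only 2. A high share thus follows in part from the selection, and no share for comparison was computed. Regions of 1 gene share their locus and are not counted as independent. By chromosome, 17 held 100 of the regions (10.9%, against 7.73% of all union regions) and 22 held 74 (8.07%, against 4.80%), while chromosome 13 held 5 (0.545%, against 1.68%).

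MicroRNA genes lay under 20 of the 917 regions (2.18%), and the same share over all union regions was not counted. Of the 24 genes in the annotation, 19 have a hairpin in the sequence table. Of its 1558 hairpins, these 19 lay in the 917 regions and 174 in any of the 49528 union regions. A longer region has more bases to overlap a hairpin, so the 2 counts are not like for like. Besides MIR142, MIR200C and MIR141, MIR342 lay in a region of EVL with widest peaks of 1257, 2810 and 4369 bp. The wide peak there, in 6T-CEM, ended before the microRNA, which only a narrower peak of Jurkat replicate 2 covered. MIR4513 at CSK (3700, 3170 and 4796 bp) and MIR6855 at USP20 (2532, 5685 and 5577 bp), which share a seed, lay on different chromosomes. The lists hold no RNA values, so whether any of these microRNAs was made was not measured.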

How the data were processed

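H3K27ac was analysed in 3 deposited narrowPeak lists (Jurkat, 2 libraries; 6T-CEM, 1 library), called per library. Bowtie2 2.2.5, MACS2 2.2.7 and hg38 are named in the submitters' processing notes; options, and whether IgG entered the calling, are not given in the sources used here. CUT&Tag is the assay in the series text, while the labels' extraction protocol speaks of sonication. For each peak the authors deposited a score, a fold enrichment (ratio), −log10 p and −log10 q values, and a summit. The lists give no counts, so depth is unknown and nothing was scaled to it. Groups came from the labels.

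Union regions, widths, covered bases and overlaps (1 base) were computed in Python 3.11.15 with NumPy 2.4.6, pandas 2.3.3 and SciPy 1.17.1, and tested on simulated data (384 regions, 0 differences). Gene bodies came from RefSeq (GRCh38.p14, 19974 protein-coding genes), and starts from its promoter table, which has 15693 of them. The planned base composition of whole regions was not computed, as no genome was used here, and promoter windows of 300 bases replaced it. No test was run: 6T-CEM has 1 library and regions are not replicates. Intervals (95%, Clopper-Pearson) cover counting error only.

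The 917 regions and the 15 gene lists (195 genes) were chosen with earlier results of these data known. Genes were named if they lay at the 12 widest regions of a library, at regions wide in every library (up to 25 by smallest width), at the 8 widest regions with a 6T-CEM peak and no Jurkat peak (or the reverse), next to the 4 kb threshold, or, for list genes, if their start lay in a region; others named were chosen after their values were seen. Alternatives were other widths, stricter or equally long lists, a 50% overlap, each Jurkat library left out, a 2.5 kb start window and 2000 bp added. The count by most upstream start was added after the data had been seen. Alternate contigs and chromosome Y were not counted. Some withheld items are not reported here.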

Additional observations from a re-analysis of the deposited data

Results flagged for a closer look

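No count above includes contigs other than the main chromosomes. On alternate contigs, Jurkat replicate 1 had 2 peaks of 4 kb or wider among 480 peaks, Jurkat replicate 2 had 5 among 933 and 6T-CEM had 10 among 1104. On the main chromosomes such peaks were 1.145%, 1.246% and 1.909% of all peaks. These sequences can be further copies of regions on the main chromosomes, and no peak on them was assigned to a gene.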

How the results depend on the processing

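Of 88 alternative values for 12 results, 43 stayed within the limits set and 45 moved; none of the values is a test. A width of 3 kb gave 1819 regions, 159 wide in every library, 71.2% with a peak in every library, 22.9% of covered bases (as reported 15.0%), and 316 regions 2-fold higher and 63 lower in 6T-CEM. A width of 5 kb gave 502, 28, 79.9%, 10.1%, 82 and 19. Taking the 200 widest peaks of each list gave 440, 31, 85.7%, 9.30% and 41 higher. Peaks with a −log10 q of 5 or more gave 66.9% with a peak in every library and 16.9% of covered bases, and lists of equal length (16159 peaks) gave 73.2%, 19.2% and 54 lower. The share over a start was 27.3% within 2.5 kb, 20 regions were lower with 2000 bp added, and CpG-poor starts were 39.0% with 1 start per gene. Wide peaks overlapped a peak of the other line in 87.3%, and in 85.3% at 3 kb, 92.0% for the 200 widest, 82.9% at the stricter q and 83.9% with equal lists. Within Jurkat the share was 94.5%, and 90.5% at 3 kb, 97.1% at 5 kb, 96.3% for the 200 widest and 87.8% at the stricter q. Wide met wide between the lines in 31.1%, in 35.9% at 3 kb and in 28.8% at 5 kb. The cause was not tested, except that a changed width or list changes the number of regions by construction. With each Jurkat library left out, the lowest and highest values were 782 and 834 regions, 71 and 218 wide in every library, 76.6% and 92.6% with a peak in every library, 23.6% and 23.8% over a start, 13.1% and 13.8% of covered bases, 159 and 423 higher, 40 and 52 lower, 78.6% and 94.2% of wide peaks overlapping the other line, and 16.9% and 42.4% meeting a wide peak there. No paired analysis was possible because the results come from no test, the IgG samples that share replicate numbers with Jurkat were not analysed here, and 6T-CEM has 1 library. Unknown depth limits every comparison of width between the lists.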
